A study of Mus musculus with 18 samples.

Results

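Zeb2 KO and control (Ctrl) mouse embryonic stem cells (ESCs) were compared at day 4 (d4) of neural differentiation (ND), the stage at which aggregates of the cells, called embryoid bodies (EBs), receive retinoic acid. The comparison used 6 of the 18 libraries of the series, 3 of each genotype, and all 10965 genes of the deposited table. Both genotypes have the strain label CD1. Ctrl cells were Zeb2 fl/fl, that is, both alleles carried loxP sites and were intact, and KO cells were Zeb2 -/-. Both were kept without feeder cells in N2B27 medium with LIF and the inhibitors PD0325901 and CHIR99021 (2i + LIF), and on d0 were moved as EBs to a medium with 15% serum, refreshed on d2. From d4 they were kept in N2B27 with 500 nM retinoic acid. The methods describe the d4 cells as progenitors grown with serum, which is the condition before this change, and do not give the hour of collection. The 3 libraries of a group are described as independent experiments, and the sources used here do not say which KO and Ctrl lines were sequenced, so p-values measure the spread between experiments and not between lines. In EBs, and in any bulk sample, fewer cells of a type and less RNA per cell cannot be told apart.

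Zeb2 is a zinc finger and homeodomain transcription factor that binds E-box sequences, represses E-cadherin in epithelial-to-mesenchymal transition (EMT) and binds receptor-activated SMAD proteins. ESCs that leave the ground state first pass through a state like the postimplantation epiblast, in which naive factors such as Klf4 fall and factors such as Otx2 rise, and only then take on germ-layer fates. Retinoic acid, made from vitamin A, acts through nuclear receptors on DNA and is known for switching on the Hox clusters in order from their 3′ ends and for posteriorizing neural tissue.

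Gene levels are given as TPM, transcript abundances that are scaled for gene length and so can be compared between genes. Reads recovered from these values numbered 14340469 to 15617675 on the listed genes in the Ctrl libraries and 10246746 to 12640972 in the KO libraries. Spearman correlations over all genes were 0.987 to 0.993 between d4 libraries of 1 genotype and 0.938 to 0.951 between genotypes. In KO replicate 1 the gene Yam1 stood apart, with 20220 TPM against 4912 and 5434 TPM in the other KO libraries and 2945 to 8808 TPM in Ctrl, and its difference was not called (adjusted p = 0.183). A difference (log2 fold change) is Zeb2 KO minus Ctrl on the scale of log2(TPM + 1), on which changes of genes with few transcripts come out too small. A gene was called where limma's moderated test over all genes gave a p below 0.01 after Benjamini-Hochberg adjustment, and every adjusted p below is of this kind.

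Zeb2 itself (ENSMUSG00000026872) lies on the minus strand of chromosome 2, from 44983632 to 45117395 on GRCm38. It was at 1.23, 1.39 and 1.47 TPM in the 3 Ctrl libraries, from 173 to 193 reads each. In the KO libraries it was at 0.126, 0.204 and 0.161 TPM, from 12 to 24 reads each. All KO libraries lay below all Ctrl libraries, and the KO mean was 12% of the Ctrl mean (difference -1.02 ± 0.12 (SE), adjusted p = 2.56e-06). The table gives 1 value for the whole gene, so reads inside and outside the deleted part cannot be told apart. At this stage Zeb2 was among the genes of lowest level in Ctrl, with 193 of 10965 genes (1.76%) at a lower mean TPM.

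At d4, 4988 of 10965 genes (45.5%) differed between Zeb2 KO and Ctrl, 1397 (12.7%) higher and 3591 (32.7%) lower in KO. The median difference of all genes was -0.16, and medians of gene groups are given below also relative to it. Of all calls 28.0% were higher in KO, a share that was 49.6% when library scales were set to a common median ratio (median-ratio rescaling), 48.4% after quantile normalization, 49.1% with the median of each chromosome removed and 41.6% with limma's voom on the recovered reads. By the thresholds of an unadjusted p below 0.01 and an absolute difference above 1, 239 genes (2.18%) were up and 839 (7.65%) down, called differentially expressed genes (DEGs) below. Rising genes made up 22.2% of the DEGs, and 34.7% after median-ratio rescaling, 47.1% after quantile normalization, 29.5% with voom and 35.0% with the chromosome medians removed. Because the least variable genes had been removed by the authors, these shares are of the more variable genes.

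On the deposited scale the falls were more numerous and larger than the rises. An absolute difference above 2 was found for 187 DEGs down and 29 DEGs up, and one above 3 for 60 down and 8 up. Among the DEGs down, 413 of 839 were below 5 TPM in all 3 KO libraries, and their median levels were 16.2 TPM in Ctrl and 4.16 TPM in KO. Among the DEGs up, 92 of 239 were below 5 TPM in all 3 Ctrl libraries, with medians of 6.05 TPM in Ctrl and 19.8 TPM in KO. The libraries of the genotypes did not overlap for 838 DEGs down and 237 DEGs up, as against 65.7% of all genes in either direction. The DEGs were selected by their difference in these same libraries, so this separation follows largely from the selection.

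**Figure D1:**
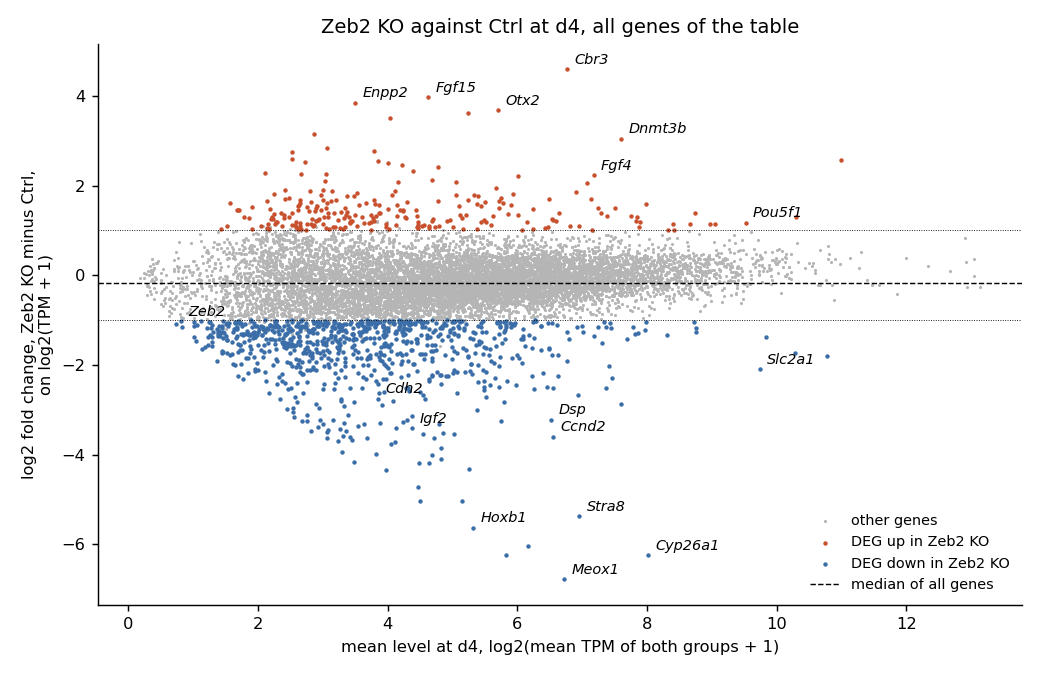
Difference between Zeb2 KO and Ctrl at d4 (y axis, log2 fold change on log2(TPM + 1)) against the mean level of both groups (x axis, log2 scale) for all 10965 genes. Blue points are the 839 DEGs down and red points the 239 DEGs up, the dotted lines mark a difference of 1 in each direction and the dashed line the median of all genes, -0.16, and the falls reach below -6 while no rise reaches 5.

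Meox1, a homeobox gene of the somite, fell most. It was at 185, 209 and 229 TPM in Ctrl against 0.605, 0.889 and 1.26 TPM in KO (difference -6.78 ± 0.20, adjusted p = 1.04e-12). Arg1, the arginase of the urea cycle, was at 109, 112 and 111 TPM in Ctrl against 0.228, 0.767 and 0.474 TPM in KO, where these values rest on 0 to 3 reads (-6.24, adjusted p = 1.4e-11). Of the other genes among the 12 largest falls, Cyp26a1, Stra6, Stra8, Hoxb1, Hoxb4 and Hoxb8 belong to the retinoic acid and Hox genes described below. Zfp703, a transcriptional corepressor, fell from 141 ± 28.4 to 1.14 ± 0.321 TPM (SD, n = 3; -6.04, adjusted p = 4.96e-12). Olig3, a bHLH factor of the dorsal hindbrain and spinal cord, fell from 29.0 ± 3.4 to 0.485 ± 0.204 TPM (-4.34, adjusted p = 3.29e-10), and BC048679 from 41.9 ± 9.03 to 0.606 ± 0.189 TPM (-4.73, adjusted p = 1.32e-10). The KO values of these 3 genes rest on at most 24 reads in a library, and none of their libraries overlapped.

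Cbr3, a carbonyl reductase, rose most, and with little spread. Its levels were 7.14, 7.99 and 8.09 TPM in Ctrl and 205, 217 and 205 TPM in KO (difference 4.59 ± 0.09, adjusted p = 6.97e-15). Fgf15, a fibroblast growth factor of the epiblast and early neural tissue, was at 1.9, 2.07 and 1.74 TPM in Ctrl against 36.1, 58.5 and 41.8 TPM in KO (3.97 ± 0.26, adjusted p = 4.18e-09). Otx2, the homeobox factor of the postimplantation epiblast and the forebrain, was at 6.44, 5.38 and 7.94 TPM in Ctrl against 92.5, 103 and 90.8 TPM in KO (3.68 ± 0.16, adjusted p = 4.86e-11). Every KO library of these genes lay far above every Ctrl library, by more than 10 times the highest Ctrl value in each case. Enpp2, which makes lysophosphatidic acid, rose from 0.468 ± 0.166 to 20.2 ± 3.02 TPM (3.85, adjusted p = 2.32e-11), and Has2, which makes hyaluronan, from 1.65 ± 0.277 to 29.2 ± 5.55 TPM (3.50, adjusted p = 1.84e-11). Vrtn, which sets the number of thoracic vertebrae in pigs, rose from 4.74 ± 1.31 to 68.6 ± 9.83 TPM (3.62, adjusted p = 5.97e-09). The 12 largest rises also held Dnmt3b, described below, Trim67 (2.84), Crym (2.77), the cytokine gene Il10 (2.76) and Gm26644 (2.60), with Ctrl means of 0.464 to 2.51 TPM and KO means of 8.84 to 23.0 TPM for the last 4.

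**Figure D2:**
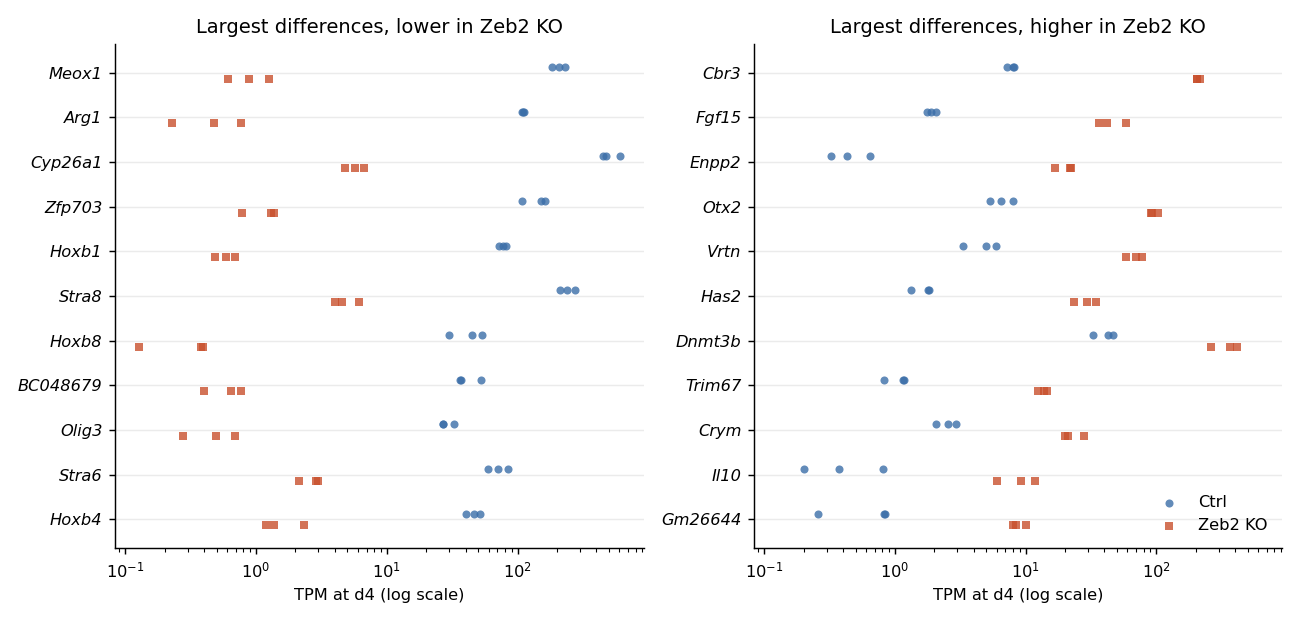
TPM (x axis, log scale) in each d4 library for 11 of the 12 largest falls (left) and 11 of the 12 largest rises (right), with blue circles for the 3 Ctrl and red squares for the 3 Zeb2 KO libraries. In all 22 genes the groups stand apart, which was a condition of their selection. Of the 11 genes that fell, 8 had a KO mean of at most 1.62 TPM with Ctrl means of 29.0 TPM or more.

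Genes that make, break down, bind or respond to retinoic acid were lower in Zeb2 KO as a group. Of the 23 listed genes 21 were in the table, of which 16 were lower, 0 were higher and 5 were not called, against 32.7% lower and 12.7% higher among all genes. Their median difference was -2.28, or -2.11 relative to all genes, and their summed level was 1787 to 2116 TPM in the Ctrl libraries and 302 to 344 TPM in KO. The list was chosen with earlier results of these data known, as were all lists here, and its counts are descriptions.

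Cyp26a1, the enzyme that degrades retinoic acid and is itself induced by it, was at 448, 476 and 604 TPM in Ctrl against 5.7, 4.79 and 6.71 TPM in KO (difference -6.24 ± 0.16, adjusted p = 1.68e-13). The same enzyme family was lower throughout, with Cyp26b1 at 7.61 ± 0.841 TPM in Ctrl and 0.676 ± 0.107 TPM in KO (-2.36, adjusted p = 1.67e-09) and Cyp26c1 at 7.28 ± 2.03 and 0.689 ± 0.275 TPM (-2.28, adjusted p = 2.77e-08). Dhrs3, which returns retinal to retinol, was at 26.8, 29.8 and 36.8 TPM in Ctrl against 1.8, 2.09 and 2.17 TPM in KO (-3.40, adjusted p = 1.08e-10). Stra6, the membrane receptor for retinol-binding protein, was at 59.6, 70.9 and 85.0 TPM in Ctrl against 2.12, 2.88 and 2.96 TPM in KO (-4.31, adjusted p = 1.99e-12). Stra8, a retinoic acid target known from meiotic entry, was at 238, 210 and 277 TPM in Ctrl against 6.17, 4.01 and 4.57 TPM in KO (-5.37, adjusted p = 5.09e-13). For none of these genes did a KO library reach a Ctrl library. The genes for intracellular binding proteins were lower too, with 342 ± 24.8 TPM in Ctrl and 46.1 ± 5.86 TPM in KO for Crabp1 (-2.87, adjusted p = 9.54e-11) and 163 ± 37.7 and 32.9 ± 2.84 TPM for Crabp2 (-2.25, adjusted p = 8.44e-08).

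Among the 5 receptor genes of the list 3 were lower. Rarb, the receptor gene that retinoic acid induces through its own promoter, was at 53.2, 61.1 and 61.5 TPM in Ctrl against 3.56, 5.13 and 3.92 TPM in KO (-3.53, adjusted p = 1.52e-10). Rxra was at 39.0 ± 3.04 TPM in Ctrl and 17.4 ± 0.498 TPM in KO (-1.11, adjusted p = 2.67e-07), and Rara at 78.3 ± 3.53 and 52.5 ± 3.72 TPM (-0.57, adjusted p = 6.18e-05). Rarg, at 91.7 ± 0.329 TPM in Ctrl and 88.5 ± 9.53 TPM in KO, and Rxrb, at 50.1 ± 1.67 and 42.4 ± 3.6 TPM, were not called (adjusted p = 0.627 and 0.0424). Enzymes of synthesis were less uniform. Aldh1a1 was lower at a low level, 2.69 ± 1.09 TPM in Ctrl and 0.203 ± 0.0626 TPM in KO (-1.58, adjusted p = 1.58e-06), while Aldh1a2 (-0.64, adjusted p = 0.0204) and Rdh10 (0.19, adjusted p = 0.218) were not called.

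Cyp26a1 and Rarb each hold a DR5 element, explained below, in the bases upstream of their start. Their promoters, from RefSeq on GRCm38.p6, are printed as the 250 bases before the start site, 5′ to 3′ on the strand of the gene, at chr19:37697558-37697807 (plus strand) for Cyp26a1 and chr14:16575477-16575726 (minus strand) for Rarb. Capitals mark the DR5 element, a pair of direct repeats of the half-site for retinoic acid receptors with 5 bases between them, which a search of both strands found 32 to 16 bases before the start of Cyp26a1, on the opposite strand, and 53 to 37 bases before the start of Rarb. These genes were chosen for printing after their values were seen.
Cyp26a1: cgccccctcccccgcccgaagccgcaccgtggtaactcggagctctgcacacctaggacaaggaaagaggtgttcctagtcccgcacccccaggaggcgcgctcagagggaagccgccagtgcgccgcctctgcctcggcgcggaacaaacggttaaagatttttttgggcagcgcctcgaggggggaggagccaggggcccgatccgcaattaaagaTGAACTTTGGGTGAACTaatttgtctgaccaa
Rarb: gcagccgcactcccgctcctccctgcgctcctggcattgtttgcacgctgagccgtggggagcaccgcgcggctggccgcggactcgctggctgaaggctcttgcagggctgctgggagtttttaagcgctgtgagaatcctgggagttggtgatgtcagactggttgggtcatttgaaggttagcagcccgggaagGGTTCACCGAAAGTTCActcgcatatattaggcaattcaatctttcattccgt
The element was in 24 of 27025 promoters of this length (0.0888%), 1 for each gene symbol of the RefSeq table. Of the 10965 genes 7223 (65.9%) had an entry there. Among those with an entry 3 held the element, too few for a comparison of shares between genes called and not called. The one besides Cyp26a1 and Rarb was Ppbp, which was not called (0.07, adjusted p = 0.75). Hoxb1, also among the largest falls, had an entry without the element. A match of letters is a description of the sequence and not a measured binding site.

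All 28 Hox genes and partner genes of their list that were in the table, of 37 listed, were lower in Zeb2 KO, against 32.7% of all genes. Their median difference was -3.53, or -3.36 relative to all genes, and their summed level was 806 to 967 TPM in the Ctrl libraries and 136 to 143 TPM in KO. One of the 28 reached the authors' minimum of 5 TPM in 3 libraries only through d4 libraries, and the other 27 did so in d0 or d6 libraries alone. Of the 24 Hox genes in the table, however, 23 had a KO mean below 5 TPM at d4 and 22 a Ctrl mean below 5 TPM at d0. In KO at d6 the highest mean of a Hox gene was 2.91 TPM. Hox genes thus met this minimum largely through Ctrl libraries, so that their count of lower genes follows in part from the filter. Hox genes encode homeodomain factors that set position along the body axis, and the TALE proteins of the Meis, Pbx and Pknox families bind DNA with them.

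Hoxb1, the 3′-most gene of its cluster and a marker of the hindbrain, was at 72.2, 77.8 and 81.8 TPM in Ctrl against 0.588, 0.691 and 0.488 TPM in KO (difference -5.62 ± 0.12, adjusted p = 1.58e-14). Hoxb8, a more posterior gene, was at 29.7, 45.2 and 53.7 TPM in Ctrl against 0.38, 0.127 and 0.394 TPM in KO (-5.04, adjusted p = 1.57e-11), and Hoxb4 at 40.4, 46.4 and 51.8 and at 1.18, 2.32 and 1.36 TPM (-4.19, adjusted p = 1.06e-09). The KO values of these genes come from 1 to 20 reads in a library.

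Over all 24 Hox genes of the table, which include Hoxa6, Hoxc13 and Hoxd13 that were not on the list, 22 were lower and the groups did not overlap in 23. The genes Hoxa2 to Hoxa7 had differences of -4.17 (Hoxa5) to -2.15 (Hoxa7), and the 9 of the Hoxb cluster (chromosome 11, 96271457 to 96368256) of -5.62 to -2.25. Levels in the Hoxb cluster ran from 4.32 to 77.3 TPM in Ctrl and from 0.108 to 1.62 TPM in KO. In the Hoxc cluster (chromosome 15, 102921103 to 103036852) the anterior Hoxc4 and Hoxc5 fell by 3.63 and 3.68. The posterior Hoxc13 and Hoxd13 were the Hox genes not called, with -0.23 (adjusted p = 0.328) and -0.33 (adjusted p = 0.286). In the Hoxd cluster (chromosome 2, 74668310 to 74765142) the other 4 genes fell by 1.52 to 2.42. In 22 of the 24 genes the Ctrl mean at d0 was below 5 TPM.

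**Figure D3:**
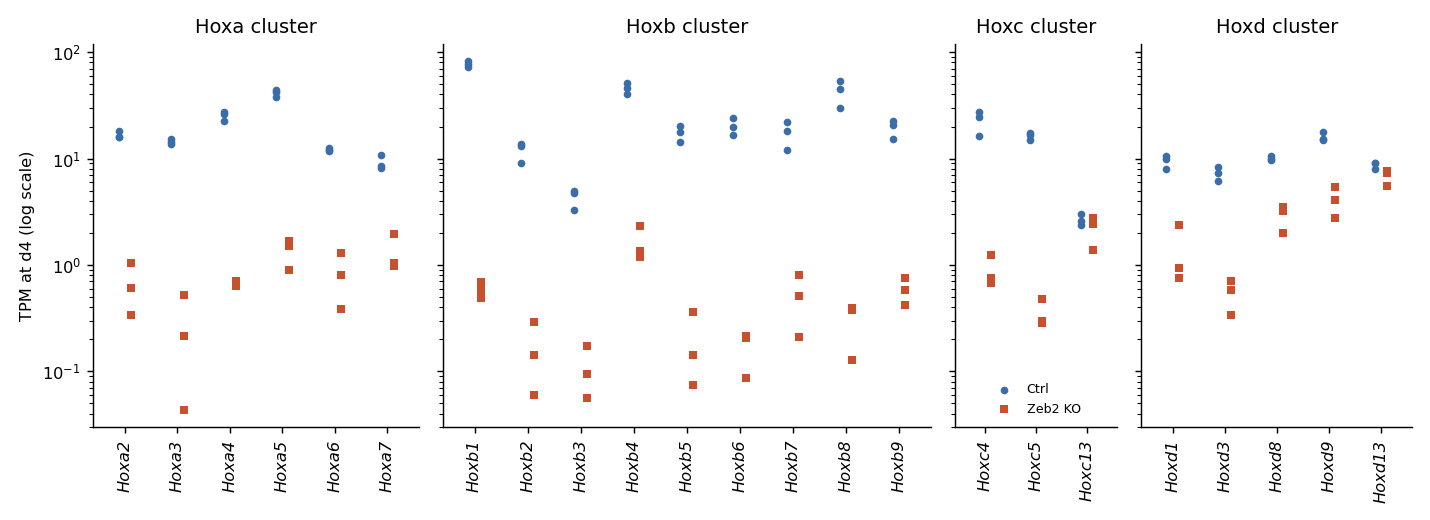
TPM at d4 (y axis, log scale) of 23 Hox genes, ordered by number within each cluster, with blue circles for the 3 Ctrl and red squares for the 3 Zeb2 KO libraries. From number 1 to number 9 the KO libraries lie below the Ctrl libraries in every gene, and at Hoxc13 and Hoxd13 the groups lie close together.

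All 7 TALE partners were lower too, with differences of -3.76 to -0.50. Meis2 was at 26.4, 28.0 and 35.6 TPM in Ctrl against 1.12, 1.7 and 1.04 TPM in KO (-3.76, adjusted p = 7.85e-11). Meis1 was at 17.9 ± 2.14 TPM in Ctrl and 1.17 ± 0.126 TPM in KO (-3.11, adjusted p = 3.69e-11). Pbx3 had the smallest difference of the list, -0.50 (adjusted p = 0.00505), and was not called after median-ratio rescaling, after quantile normalization, with chromosome medians removed, or without any d4 library other than KO replicate 3, with adjusted p of 0.0118 to 0.19. The related homeobox gene Cdx1, an activator of Hox genes, was at 27.4, 27.5 and 31.0 TPM in Ctrl against 4.24, 3.56 and 2.2 TPM in KO (-2.80, adjusted p = 6.32e-08).

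Pluripotency genes divided by the stage they belong to. The 16 naive factors had no common direction, with 4 higher, 4 lower and 8 not called and a median of -0.02 relative to all genes. These are 25% higher and 25% lower, against 12.7% and 32.7% of all genes. Esrrb was at 281, 277 and 224 TPM in Ctrl against 286, 233 and 288 TPM in KO, and Klf4 at 31.8, 37.0 and 25.6 and at 40.2, 28.8 and 36.3 TPM. Their libraries overlapped, as did those of Tbx3 and Prdm14, and none of the 4 was called (adjusted p = 0.727, 0.333, 0.0325 and 0.56). Fgf4, the autocrine growth factor of ESCs, was the naive-list gene with the largest rise, from 50.0 ± 5.28 to 237 ± 17.3 TPM (2.23, adjusted p = 1.67e-09), followed by Tcl1 (0.71, adjusted p = 1.66e-05). Lower were Tfap2c, at 75.1 ± 4.38 TPM in Ctrl and 24.7 ± 4.63 TPM in KO (-1.58, adjusted p = 9.38e-08), Gbx2 (-1.99, adjusted p = 1.04e-06), Dppa3, at 110 ± 12.4 and 41.5 ± 10.5 TPM (-1.40, adjusted p = 1.1e-06), and Tfcp2l1 (-0.62, adjusted p = 3.23e-04). The small rises of Zfp42 (0.28, adjusted p = 0.00526) and Nr0b1 (0.45, adjusted p = 0.00823) were not called without any of Ctrl replicates 2 and 3 and KO replicates 1 and 3, with adjusted p of 0.0178 to 0.0326 for Zfp42 and 0.016 to 0.057 for Nr0b1, which leaves 2 naive factors higher.

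General pluripotency genes were mostly higher in KO, with 10 of 16 higher, 2 lower and 4 not called against 12.7% higher among all genes, and a median of 0.71 (0.87 relative to all genes). The count of lower genes was 0 or 1 without any 1 of the d4 libraries. Their summed level was 4706 to 5283 TPM in Ctrl and 7604 to 7951 TPM in KO. Pou5f1, which encodes Oct4, was at 525, 436 and 397 TPM in Ctrl against 969, 1043 and 1033 TPM in KO (1.17 ± 0.10, adjusted p = 1.57e-07). The Nodal co-receptor gene Tdgf1 was at 104, 92.3 and 89.1 TPM in Ctrl against 277, 275 and 253 TPM in KO (1.49, adjusted p = 1.36e-06), and the Nodal antagonist gene Lefty2 at 146, 129 and 101 and at 394, 347 and 395 TPM (1.60, adjusted p = 3.76e-08). Dppa5a (1.30), Utf1 (0.91) and Tcea3 (0.84) were higher as well, with adjusted p of at most 1.42e-04. For each of these genes the KO libraries all lay above the Ctrl libraries. Sox2, at 843 ± 51.9 TPM in Ctrl and 941 ± 120 TPM in KO, and Nanog were not called (adjusted p = 0.168 and 0.204).

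Nanog was at 730, 629 and 534 TPM in Ctrl against 776, 668 and 688 TPM in KO, so that the libraries overlapped. Because Zeb2 binds E-boxes, the upstream sequences of Nanog and Epcam are printed with the E-box CACCTG (on either strand) in capitals, over the 250 bases before the start site. Nanog lies at chr6:122707239-122707488 and Epcam at chr17:87635729-87635978 (RefSeq, GRCm38.p6, plus strand). Cdh1 has no entry.
Nanog: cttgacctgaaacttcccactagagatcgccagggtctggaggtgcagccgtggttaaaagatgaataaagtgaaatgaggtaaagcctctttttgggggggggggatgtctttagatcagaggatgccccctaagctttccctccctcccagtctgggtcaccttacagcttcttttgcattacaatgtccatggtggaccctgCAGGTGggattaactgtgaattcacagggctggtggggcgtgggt
Epcam: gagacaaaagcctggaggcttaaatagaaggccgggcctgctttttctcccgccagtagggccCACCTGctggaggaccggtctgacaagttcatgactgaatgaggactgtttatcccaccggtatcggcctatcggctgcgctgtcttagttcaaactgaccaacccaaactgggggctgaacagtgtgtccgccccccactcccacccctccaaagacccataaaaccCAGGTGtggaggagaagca
Nanog held the motif 45 to 40 bases before its start and Epcam 187 to 182 and 19 to 14 bases before its start. CACCTG was in 4620 of 27025 promoters of this length (17.1%), and the shorter CACCT, which lies within it, in 12366 (45.8%).

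Postimplantation epiblast genes formed the group with the highest median, 1.17 (1.34 relative to all genes), with 11 of 18 higher, 2 lower and 5 not called. Among all genes 12.7% were higher and 32.7% lower. Otx2 and Fgf15 led, as given above. Foxd3, a forkhead factor of the epiblast, was at 4.86, 8.96 and 4.64 TPM in Ctrl against 34.2, 27.5 and 39.3 TPM in KO (2.31, adjusted p = 1.79e-07). Pou3f1, also called Oct6, was at 9.17 ± 0.756 TPM in Ctrl and 26.6 ± 4.34 TPM in KO (1.43, adjusted p = 8e-07), Fgf5 at 6.9 ± 0.665 and 18.3 ± 3.27 TPM (1.28, adjusted p = 8.01e-05) and Zic2 at 56.6 ± 3.19 and 95.8 ± 11.8 TPM (0.74, adjusted p = 4.88e-06). In the other direction, Sox4 (-1.07, adjusted p = 2.64e-05) and Sox11 (-0.93, adjusted p = 1.38e-04), which are also neural genes, were lower in KO.

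Genes for enzymes that write and remove DNA methylation, listed together with genes for methyl-CpG binding proteins, moved in both directions. Of the 14 genes of this list measured 4 were higher, among them all 3 de novo methylation genes, and 6 were lower. Among all genes 12.7% were higher and 32.7% lower. After median-ratio rescaling 5 of the 14 were higher and 4 lower. The de novo methyltransferase gene Dnmt3b was at 33.0, 42.5 and 46.4 TPM in Ctrl against 260, 413 and 363 TPM in KO (3.05 ± 0.15, adjusted p = 1.62e-10). Dnmt3l, its cofactor, was at 18.0, 19.1 and 26.4 TPM in Ctrl against 61.1, 70.1 and 70.6 TPM in KO (1.64, adjusted p = 3.93e-07), and Dnmt3a at 26.3 ± 0.481 and 46.3 ± 4.18 TPM (0.79, adjusted p = 1.49e-04). The maintenance enzyme gene Dnmt1 was at 444 ± 12.3 TPM in Ctrl and 360 ± 22.9 TPM in KO (-0.30, adjusted p = 1.63e-04), a call lost after median-ratio rescaling (adjusted p = 0.0243). The genes for the oxidizing Tet enzymes differed from each other. Tet1 was at 73.7, 61.5 and 62.0 TPM in Ctrl against 104, 94.9 and 105 TPM in KO (0.62, adjusted p = 7.08e-04). Tet3 was lower in KO, at 20.1, 20.9 and 25.2 TPM in Ctrl against 10.3, 9.14 and 10.5 TPM (-1.07, adjusted p = 1.04e-06), and Tet2 was not called (-0.45, adjusted p = 0.133). The methyl-CpG binding protein genes Mbd1 (-0.99) and Mbd2 (-0.79) were lower.

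Epithelial and mesenchymal genes moved apart. Of 30 measured epithelial junction and keratin genes 15 were higher and 5 lower (median 0.35, or 0.51 relative to all genes). Of 16 mesenchymal and EMT genes 0 were higher and 11 lower (median -0.82, or -0.66 relative to all genes). Among all genes 12.7% were higher and 32.7% lower. After median-ratio rescaling 18 epithelial genes were higher and 3 lower, and 8 mesenchymal genes were lower. Lower mesenchymal genes numbered 7 after quantile normalization. At a mean of at least 10 TPM they numbered 5 of 9, with a median of -0.17 relative to all genes. Cdh1, which encodes E-cadherin, was at 300, 312 and 306 TPM in Ctrl against 456, 523 and 478 TPM in KO (0.66 ± 0.08, adjusted p = 2.68e-06). Epcam was at 82.1, 93.2 and 81.1 TPM in Ctrl against 194, 247 and 231 TPM in KO (1.38 ± 0.15, adjusted p = 1.1e-06). Ap1m2, of the epithelial sorting complex, was at 11.8 ± 1.49 TPM in Ctrl and 52.9 ± 6.01 TPM in KO (2.07, adjusted p = 2.78e-08), and Grhl2 (1.68), Cldn7 (1.45) and Marveld3 (1.43) were higher too. Some epithelial genes went the other way. The desmosome gene Dsp was at 155, 149 and 191 TPM in Ctrl against 18.4, 16.9 and 15.1 TPM in KO (-3.22 ± 0.11, adjusted p = 2.86e-12), and Krt7 (-1.40) and Grhl3 (-1.27) were lower.

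The largest difference on the mesenchymal side was that of Cdh2. This gene, which encodes N-cadherin, was at 22.5, 24.7 and 25.3 TPM in Ctrl against 2.9, 2.85 and 2.51 TPM in KO (-2.75 ± 0.10, adjusted p = 1.27e-11). The EMT factor genes Snai1, at 11.2 ± 3.36 TPM in Ctrl and 3.3 ± 1.56 TPM in KO (-1.55, adjusted p = 1.57e-04), and Snai2, at 9.12 ± 0.975 and 2.35 ± 0.566 TPM (-1.60, adjusted p = 3.99e-05), were lower. Zeb1, the paralog of Zeb2, was lower and not higher, at 18.0, 16.2 and 16.7 TPM in Ctrl against 7.81, 5.96 and 7.26 TPM in KO (-1.17, adjusted p = 1.58e-06). Twist1 (-0.28, adjusted p = 0.388) and the intermediate filament gene Vim (-0.10, adjusted p = 0.367) were not called. Matrix and integrin genes were mostly lower, with 17 of 23 lower and 1 higher, against 32.7% and 12.7% of all genes. One of the 23 reached 5 TPM in 3 libraries only through d4 libraries, and without it 16 of 22 were lower. They include the basement membrane genes Col4a1, at 143 ± 17.2 TPM in Ctrl and 40.8 ± 1.61 TPM in KO (-1.78, adjusted p = 8.23e-08), Col4a2 (-2.11) and Lama1 (-1.85), and the integrin genes Itgb3 (-1.92) and Itga3 (-1.77). Itga6 was higher (0.31, adjusted p = 9.95e-04).

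**Figure D4:**
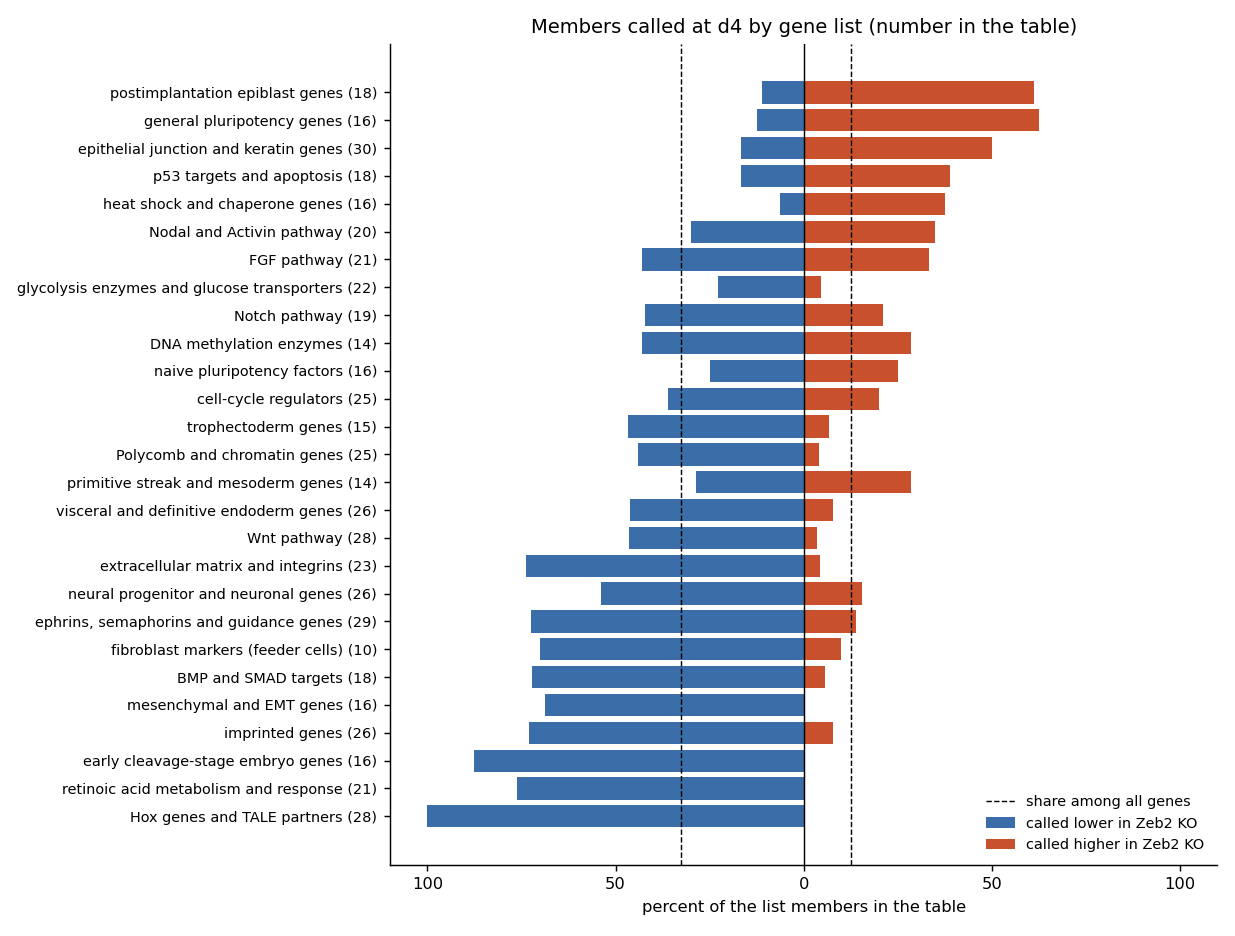
Percent of the list members in the table that were called lower (blue, to the left) or higher (red, to the right) in Zeb2 KO at d4, for 27 gene lists ordered by their median difference, with the number of members in parentheses. The dashed lines mark the shares among all genes, 32.7% lower and 12.7% higher, and the Hox and retinoic acid lists stand at the lower end and the epiblast list at the upper end.

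In the FGF and Nodal pathways, genes for ligands and for receptors differed in direction. FGF signalling runs from secreted ligands through tyrosine kinase receptors to ERK. Of 7 FGF ligand genes 5 were higher and 1 lower, and of 4 receptor genes 3 were lower and 0 higher. Among all genes 12.7% were higher and 32.7% lower. These counts by role are small and are descriptions. Besides Fgf15, Fgf4 and Fgf5, the higher ligands were Fgf17, at 24.5 ± 5.9 TPM in Ctrl and 78.7 ± 10.6 TPM in KO (1.66, adjusted p = 2.1e-05), and Fgf8, at 0.729 ± 0.391 and 3.69 ± 0.936 TPM (1.45, adjusted p = 1.81e-05). Fgfr2 was at 24.0, 25.5 and 28.4 TPM in Ctrl against 4.88, 4.89 and 4.95 TPM in KO (-2.19 ± 0.13, adjusted p = 1.17e-09). Fgfr1, the receptor with the highest level here, was at 101 ± 6.95 TPM in Ctrl and 51.0 ± 3.3 TPM in KO (-0.97, adjusted p = 8.17e-08). Targets and feedback inhibitors of the pathway showed no single direction, with 2 of 10 higher, 5 lower and 3 not called. Etv5 rose (0.86, adjusted p = 2.49e-08), Spry4, from 37.4 ± 3.28 to 18.4 ± 3.72 TPM (adjusted p = 0.00122), and Il17rd (-0.93, adjusted p = 5.85e-07) fell, and Dusp6 was at 237 ± 19.3 TPM in Ctrl and 235 ± 39.6 TPM in KO (adjusted p = 0.895).

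In the Nodal and Activin pathway, where ligands act through activin receptors on Smad2 and Smad3, 7 of 20 genes were higher and 6 lower. Among all genes 12.7% were higher and 32.7% lower. After median-ratio rescaling 8 of the 20 were higher and 5 lower. The 7 genes for ligands, co-receptor and antagonists held 5 of the higher ones and 0 lower. The 6 genes for receptors and for Smads other than the inhibitory Smad7 held 5 of the lower ones and 0 higher. Nodal was at 151, 146 and 120 TPM in Ctrl against 195, 174 and 194 TPM in KO (0.44 ± 0.09, adjusted p = 7.58e-04). The antagonist gene Fst rose from 2.68 ± 0.455 to 11.3 ± 4.18 TPM (1.68, adjusted p = 3.58e-05), and the inhibitory factor genes Smad7 (0.65, adjusted p = 2.21e-05) and Tgif1 (0.69, adjusted p = 6.11e-07) rose. Smad2 was at 66.1, 59.4 and 70.3 TPM in Ctrl against 35.7, 36.7 and 39.5 TPM in KO (-0.79, adjusted p = 2.17e-07), Smad3 at 58.0 ± 7.85 and 35.2 ± 0.71 TPM (-0.69, adjusted p = 9.7e-06) and the type I receptor gene Acvr1b at 92.8 ± 1.32 and 55.7 ± 1.07 TPM (-0.73, adjusted p = 8.06e-07).

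Genes of BMP signalling and its targets were lower in 13 of 18 cases and higher in 1, the antagonist gene Fst. Among all genes 32.7% were lower and 12.7% higher. The count of lower genes was 11 after median-ratio rescaling and 10 after quantile normalization. At a mean of at least 10 TPM it was 6 of 9. Bmp7 was at 57.7, 61.5 and 84.4 TPM in Ctrl against 19.6, 17.3 and 20.5 TPM in KO (-1.76, adjusted p = 7.64e-08), whereas Bmp4 was at 10.8, 11.8 and 14.5 and at 11.3, 12 and 12.4 TPM and was not called (adjusted p = 0.875). The direct BMP targets Smad6, at 16.9 ± 1.72 TPM in Ctrl and 4.46 ± 0.492 TPM in KO (-1.72, adjusted p = 1.89e-07), Atoh8 (-2.55), Dlx3 (-2.37) and Id3 (-1.14, adjusted p = 3.4e-04) were lower, and Id1 was not called (-0.57, adjusted p = 0.0255).

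Of the Wnt pathway genes 13 of 28 were lower and 1 higher, against 32.7% and 12.7% of all genes, with a median of -0.28 relative to all genes. After median-ratio rescaling 10 were lower and 2 higher, when 2335 of 10965 genes were lower and 2300 higher. With the chromosome medians removed 8 were lower, when 2349 of 10965 genes were. Without KO replicate 2 a count of 2 was higher. The secreted inhibitor gene Sfrp5 was at 44.5, 48.6 and 49.3 TPM in Ctrl against 2.13, 1.49 and 2.58 TPM in KO (-4.00, adjusted p = 2.8e-09). The ligand gene Wnt3a was at 7.92 ± 1.73 TPM in Ctrl and 0.707 ± 0.395 TPM in KO (-2.39, adjusted p = 5.06e-06). Of 7 Frizzled receptor genes 5 were lower, with Fzd2 at 112 ± 17.6 and 35.6 ± 5.01 TPM (-1.62, adjusted p = 5.93e-07) and Fzd8 at 48.9 ± 2.54 and 14.4 ± 1.07 TPM (-1.70, adjusted p = 2.58e-07). Tcf7, a nuclear effector, was the gene that was higher (0.75, adjusted p = 1.16e-05), and the target gene Axin2 was not called (-0.37, adjusted p = 0.0805).

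In the Notch pathway 8 of 19 genes were lower and 4 higher, against 32.7% and 12.7% of all genes. The median of the list was 0.09 relative to all genes, and after quantile normalization 6 were lower and 7 higher. The ligand genes split, with Dll1 at 12.6, 16.0 and 18.7 TPM in Ctrl against 1.5, 2.82 and 3.28 TPM in KO (-2.26, adjusted p = 1.74e-06) and Jag1 at 4.83, 6.3 and 4.65 and at 17.9, 16.9 and 19.4 TPM (1.62, adjusted p = 1.72e-08). Lfng, which modifies the receptors, fell by 1.85 and the target gene Hey1 by 1.70, while Hes6, an antagonist of Hes1, rose from 25.6 ± 2.99 to 59.5 ± 2.95 TPM (1.19, adjusted p = 9.4e-07). Guidance genes, which steer axons and sort cells at boundaries, were lower in 21 of 29 cases and higher in 4, and in 18 and 5 after median-ratio rescaling. The largest of these falls was in the ephrin gene Efnb1, at 71.0, 73.1 and 74.3 TPM in Ctrl against 9.95, 7.59 and 7.23 TPM in KO (-3.01, adjusted p = 2.41e-10), followed by Plxna2 (-2.04), Nrp1 (-1.69) and Efnb3 (-1.62). Sema6a (1.36) and Epha1 (1.16, adjusted p = 2.84e-04) were higher.

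Of the marker lists for fates that EBs can take, those for neural, endoderm and trophectoderm cells held more lower than higher genes, as did all genes of the table (32.7% lower, 12.7% higher), and in none of them were all members called. Of 26 neural genes 14 were lower and 4 higher, and 10 were lower after quantile normalization (median -0.71, summed level 614 to 711 TPM in Ctrl and 444 to 477 TPM in KO). Irx3, a homeobox factor of the neural plate, was at 34.2, 43.7 and 44.0 TPM in Ctrl against 4.27, 6.14 and 5.04 TPM in KO (-2.76, adjusted p = 2.92e-09). Neurog1 was at 10.7, 10.1 and 12.7 TPM in Ctrl against 0.406, 0.341 and 0.422 TPM in KO (-3.12), Pax6 at 17.6, 16.4 and 17.7 and at 7.51, 8.25 and 7.11 TPM (-1.08), and Zfp521 at 39.5, 40.2 and 42.3 and at 6.47, 7.27 and 7.85 TPM (-2.35), with adjusted p of at most 2.12e-06. Sox1, the earliest definitive neural marker, was at 92.0 to 122 TPM in Ctrl against 66.6 to 79.8 TPM in KO, with libraries that did not overlap but no call (-0.51, adjusted p = 0.0136). Neurod1 was higher, at 9.26 ± 0.801 TPM in Ctrl and 18.9 ± 1.21 TPM in KO (0.96, adjusted p = 8.97e-05). Without Ctrl replicate 1 only 1 of the neural genes was called higher, and 2 without Ctrl replicate 2 or 3 or KO replicate 2 or 3.

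Among 26 endoderm genes 12 were lower and 2 higher, with a summed level of 1397 to 1476 TPM in Ctrl and 1353 to 1477 TPM in KO. Foxa1, a forkhead factor of endoderm and floor plate, was at 23.7, 36.2 and 38.7 TPM in Ctrl against 6.13, 4.44 and 3.95 TPM in KO (-2.52, adjusted p = 8.61e-07). The secreted products of visceral endoderm Afp, Apoa1 and Apob were not called, and Gata6 was at 3.31 ± 0.777 TPM in Ctrl and 0.868 ± 0.0929 TPM in KO (-1.19, adjusted p = 4.73e-05). The count of higher endoderm genes was 1 without any d4 library other than KO replicate 1. Of 14 mesoderm genes 4 were lower, led by Meox1, and 4 higher, led by the haemangioblast factor gene Etv2, which was at 3.52, 2.29 and 0.753 TPM in Ctrl against 7.72, 14.3 and 14.4 TPM in KO (2.10, adjusted p = 1.34e-05). The summed level of this list was 239.5 to 278 TPM in Ctrl and 57.3 to 71.4 TPM in KO, with Meox1 alone at 185 to 229 TPM in Ctrl. Eomes, Gsc and Lhx1 of the primitive streak were not called. Of 15 trophectoderm genes 7 were lower and 1 higher, or 4 and 2 after quantile normalization, with sums of 343 to 353 TPM in Ctrl and 296 to 343 TPM in KO. Gata2 (-1.50, adjusted p = 6.6e-05) was among those lower, and the 1 higher was not called without any d4 library other than Ctrl replicate 1. Fibroblast markers, included because ESC lines are often derived on feeder cells, were lower in 7 of 10 cases and higher in 1, but 2 were lower and 2 higher after quantile normalization and 5 lower after median-ratio rescaling or without any d4 library other than Ctrl replicate 3, with sums of 88.6 to 97.9 TPM in Ctrl and 87.8 to 117 TPM in KO. How far the makeup of the EBs contributed to the differences was not tested.

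Imprinted genes were mostly lower, with 19 of 26 lower and 2 higher (median -0.84 relative to all genes), against 32.7% and 12.7% of all genes. One of the 26 reached 5 TPM in 3 libraries only through d4 libraries, and without it 18 of 25 were lower and the median difference went from -0.999 to -1.17. With all members, their summed level was 2194 to 2353 TPM in Ctrl and 1267 to 1355 TPM in KO. Igf2, the paternally expressed growth factor gene, was at 31.3, 38.5 and 41.4 TPM in Ctrl against 2.43, 2.7 and 2.55 TPM in KO (-3.41 ± 0.15, adjusted p = 6.34e-11). Its maternally expressed neighbour H19 was lower too, at 29.2, 36.7 and 36.8 TPM in Ctrl against 11.4, 13.6 and 12.1 TPM in KO (-1.39, adjusted p = 1.32e-07). Peg3 was at 208, 206 and 220 TPM in Ctrl against 32.5, 33.4 and 31.6 TPM in KO (-2.66 ± 0.08, adjusted p = 8.94e-13), and Peg12 (-2.71), Peg10 (-2.55) and Nnat (-2.52) fell by similar amounts. Phlda2 (0.83) and Mcts2 (0.50) were the imprinted genes that were higher.

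Genes of the early cleavage-stage embryo, which mark a rare state of ESC cultures, were lower in 14 of 16 cases and higher in 0. Among all genes 32.7% were lower and 12.7% higher. The median of the list was -1.95, or -1.79 relative to all genes. Zscan4c was at 38.3, 33.7 and 46.6 TPM in Ctrl against 5.72, 5.29 and 4.87 TPM in KO (-2.68 ± 0.32, adjusted p = 4e-06). Zscan4d was at 56.9 ± 13.5 TPM in Ctrl and 8.35 ± 1.87 TPM in KO (-2.62, adjusted p = 6.84e-06) and Tmem92 at 29.4 ± 3.94 and 5.36 ± 1.32 TPM (-2.27, adjusted p = 1.23e-05). Members of the Zscan4 and Usp17l families are near-identical copies, so reads may be split between them. At d0 the same list had a median of 1.46, that is, higher in KO, with Zscan4c at 2.24 TPM in Ctrl and 8.35 TPM in KO.

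Cell-cycle regulators showed an exchange of D-type cyclins. Ccnd2 was at 147, 152 and 216 TPM in Ctrl against 10.6, 17.1 and 12.3 TPM in KO (-3.59 ± 0.24, adjusted p = 6.61e-09). Ccnd1 was at 42.1, 55.2 and 55.7 TPM in Ctrl against 185, 244 and 218 TPM in KO (2.06 ± 0.13, adjusted p = 4e-09), and Ccnd3 was lower (-1.01). The inhibitor genes Cdkn1c, at 41.0 ± 7.37 TPM in Ctrl and 14.3 ± 1.27 TPM in KO (-1.44, adjusted p = 7.64e-07), Cdkn2c (-1.29) and Cdkn2a (-1.02) were lower, and Myc was higher, at 7.35 ± 0.274 and 18.3 ± 2.91 TPM (1.20, adjusted p = 5.58e-05). Of 6 mitotic and kinase genes, Ccna2, Cdk1, Cdk2, Cdk4 and Mki67 were not called. The other, Ccnb2, was at 564 ± 30.0 TPM in Ctrl and 491 ± 20.1 TPM in KO (-0.20, adjusted p = 0.00913), and was not called without any d4 library other than KO replicate 1 or after median-ratio rescaling, with adjusted p of 0.0106 to 0.889 over the settings that lost it. Over the 25 genes measured 5 were higher and 9 lower, shares near those of all genes (12.7% and 32.7%), and after median-ratio rescaling 9 were higher and 7 lower.

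The difference at d4 was compared with that at d0, in 2i + LIF, through the interaction of genotype and day. It was called for 3957 genes (36.1%), 1495 with a difference shifted up and 2462 shifted down. Of these, 634 lie on chromosomes 8 and 12, and 570 of them were shifted down. There the median difference was 0.33 and 0.36 at d0 and -0.20 and -0.18 at d4, where the medians of the autosomes and X lay between -0.24 and -0.08, and with the chromosome medians removed 3638 genes were called. Of the 24 Hox genes 22 had shifted down and none was called at d0. Cyp26a1 was at 0.623 TPM in Ctrl and 0.801 TPM in KO at d0, and at 452 and 20.6 TPM at d6, so that in KO it was higher at d6 than at d4 but did not reach Ctrl. Hoxb1 stayed at 0.802 TPM in KO at d6 against 110 TPM in Ctrl. Otx2 had been lower in KO at d0, at 1.86 TPM against 3.96 TPM in Ctrl, and reached 161 TPM in KO at d6 against 9.14 TPM. Fgf15 was at 27.6 TPM in Ctrl and 38.1 TPM in KO at d6, when the difference was not called (adjusted p = 0.131).

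**Figure D5:**
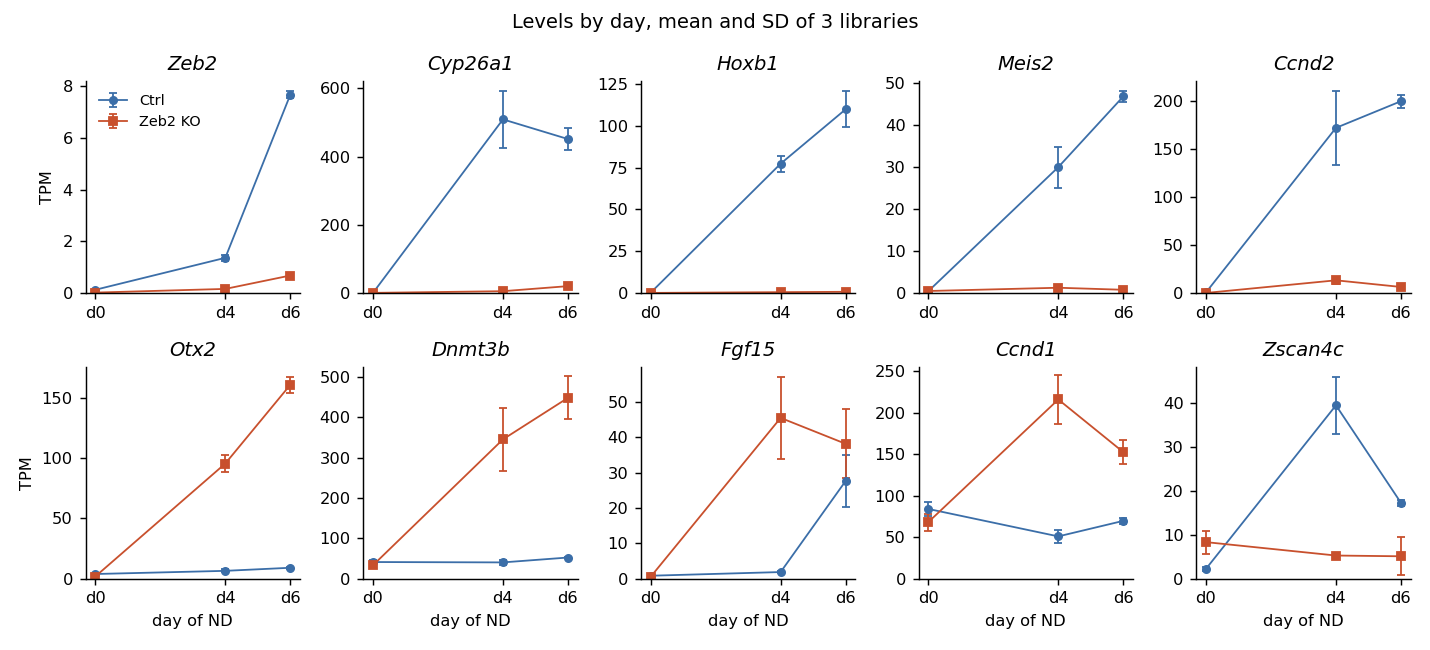
Level in TPM (y axis) on d0, d4 and d6 of ND (x axis) in Ctrl (blue circles) and Zeb2 KO (red squares) for 10 genes, as means with SD of 3 libraries. Cyp26a1, Hoxb1, Meis2 and Ccnd2 rise by d4 in Ctrl and stay near the base in KO, Otx2, Dnmt3b and Ccnd1 are higher in KO at d4 and d6, and Fgf15 and Zscan4c have their largest difference at d4.

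Of the 239 DEGs up at d4, 174 (72.8%) were also up at d6, where they made up 34.1% of the DEGs up, and of the 839 DEGs down 561 (66.9%) were also down at d6, 46.5% of those there. At d0, 8 of the DEGs up and 52 of the DEGs down were DEGs in the same direction and 13 and 49 in the opposite one. Of all 10965 genes, 511 were DEGs up and 1207 DEGs down at d6, and 196 up and 308 down at d0. No library is shared between these days, but the same genotypes were compared on each, from lines that are not named.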

How the data were processed

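RNA from Ctrl and Zeb2 KO cells on d0, d4 and d6 of ND was sequenced as 36 bp single reads, with 3 libraries in each of 6 groups. According to the methods and processing notes of the submitters, reads were aligned with TopHat2 2.0.13 and counted with featureCounts 1.4.6, and mm10 (GRCm38) is the build named. The authors deposited TPM values, 1 table for all libraries, after removing short noncoding RNAs, genes at 5 TPM in fewer than 3 libraries and the least variable genes (20%). The deposited score columns (3) of the authors' own comparisons were not used. The table held 11046 rows, and the 81 repeated rows of a gene identifier were left out. Whole reads, with 1 added for each gene, were recovered for all 10965 genes (tolerance 1e-06).

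Differences were fitted with limma 3.58.1 in R 4.3.3 on log2(TPM + 1), a mean for each group over all 18 libraries and a trended variance, so that the 6 d4 libraries share their estimate of spread with the others. A gene was called at an adjusted p below 0.01 (two-sided). DEGs had an unadjusted p below 0.01 and an absolute difference above 1. On simulated d4 data the fit called 97 of 100 genes changed by 1 on the log2 scale, 100 of 100 changed by 2 and 2 unchanged genes, of 10965. The changed genes were drawn from those with more than 100 reads on average, and all other genes had equal means in both genotypes. Every gene was given the same spread between libraries (dispersion 0.01). The simulation therefore does not cover changes of genes with few reads, a shift of all genes or a larger spread. Named were Zeb2, the 12 largest differences in each direction among the genes called and not overlapping, and up to 4 called genes in each direction from each list. Ppbp, Yam1 and genes given as not called were chosen after their values were seen, and so were the promoters printed for Cyp26a1 and Rarb. The comparison, the genes and the lists were chosen with earlier results of these data known. Some members of the lists are counted but not reported here by name. Promoter sequences are those of RefSeq, and gene positions are on GRCm38. Alternatives tried were other pseudocounts, a minimum level, rescaling, voom, other fits and leaving out each library.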

Additional observations from a re-analysis of the deposited data

Results flagged for a closer look

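The difference between Zeb2 KO and Ctrl at d4 was other than that at d0, by the interaction term of the same fit at an adjusted p below 0.01, for 3957 genes among them each gene below. The values are the d4 difference minus the d0 difference on log2(TPM + 1). For Zeb2 it was -0.88, with both genotypes at lower levels on d0. Among the largest falls the interaction was -7.02 for Arg1, -6.81 for Meox1, -6.38 for Cyp26a1, -6.36 for Zfp703, -6.31 for BC048679, -5.54 for Hoxb1, -5.16 for Hoxb8, -4.84 for Hoxb4, -4.63 for Stra8, -4.47 for Stra6 and -3.44 for Olig3. Among the largest rises it was 4.50 for Otx2, 4.20 for Fgf15, 4.11 for Cbr3, 3.97 for Enpp2, 3.37 for Has2, 3.34 for Dnmt3b, 2.93 for Vrtn, 2.84 for Trim67, 2.81 for Gm26644, 2.57 for Crym and 2.02 for Il10. These genes were selected by their d4 difference, which enters the interaction. Groups of 3 libraries were not searched for libraries far from the others.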

How the results depend on the processing

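The number of genes called ran from 4067 to 5041 over all settings on all genes, and the split by direction depended on scaling. Genes higher in KO numbered 2300 after median-ratio rescaling, 2132 after quantile normalization and 2269 with chromosome medians removed, against 1397, and genes lower 2335, 2276 and 2349, against 3591. DEGs up numbered 123 with a pseudocount of 5, 147 at a mean of at least 10 TPM (8396 genes), 475 after quantile normalization, 364 with voom and 749 with an absolute difference above 0.5, against 239, and DEGs down 418 with a pseudocount of 5, 440 at 10 TPM, 533 after quantile normalization and 2468 above 0.5, against 839. Leaving out 1 d4 library gave 1079 to 1271 genes higher, 2945 to 3321 lower, 235 to 260 DEGs up, 777 to 896 down and 3400 to 3697 interactions. Bax, higher by 0.25, was at -0.000396 after quantile normalization (adjusted p = 0.997), and the cause was not tested. Zeb2 was called under each setting, from -0.30 with a pseudocount of 5 to -2.98 with voom. Of 349 named genes called, 274 were called under each setting that tested them. Residuals of libraries with the same replicate number correlated at 0.23, 0.19 and 0.047, so the numbers were not taken to pair libraries, although each KO library correlated best with its own number. With the replicate block 4853 genes were called, 1356 higher and 3497 lower, of which 4766 were among the 4988. The fit to d4 libraries alone gives no interaction. In KO the lower depth and levels below 1 TPM, from few reads, limit the precision of the largest falls.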

Other observations

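Among 22 genes of glycolysis and glucose uptake 5 were lower in Zeb2 KO at d4, 1 higher and 16 not called, a lower share below the 32.7% of all genes, and after median-ratio rescaling 5 were lower and 4 higher. The 2 glucose transporter genes had the largest falls, and Slc2a1 was at 1276, 1339 and 1537 TPM in Ctrl against 309.6, 338 and 322 TPM in KO (-2.09, adjusted p = 2.65e-10). Slc2a3 was at 1306, 1313 and 1330 TPM in Ctrl against 503, 517 and 491 TPM in KO (-1.38, adjusted p = 6.84e-11), so that the genotypes stood apart for both. Pfkm, a phosphofructokinase gene, was higher, at 97.6 ± 6.3 TPM in Ctrl and 166 ± 12.4 TPM in KO (0.76, adjusted p = 8.21e-08). Of 18 genes of the p53 response and apoptosis 7 were higher and 3 lower, against 12.7% and 32.7% of all genes. Pmaip1, whose product Noxa promotes apoptosis, was at 208, 208 and 209 TPM in Ctrl against 440.1, 517 and 438 TPM in KO (1.15, adjusted p = 3.2e-06), and Cdkn1a (0.62) and Bax (0.25) were higher as well. Gadd45a (-2.14, adjusted p = 1.07e-08) and Bcl2l11 (-1.04, adjusted p = 4.05e-07) were lower.

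Of 16 chaperone and stress genes 6 were higher and 1 lower, all by less than 1, with Hspe1 the highest at 0.59 (adjusted p = 2.09e-04). The 1 lower gene was not called without any d4 library other than KO replicate 3. Of 25 Polycomb and chromatin genes 11 were lower and 1 higher, against 32.7% and 12.7% of all genes. Their median was close to that of all genes, at -0.07 relative to it. After median-ratio rescaling 7 of the 25 were lower, as were 2335 of 10965 genes. Hmga2, a chromatin protein gene of early embryos, was at 16.0, 21.1 and 18.6 TPM in Ctrl against 3.0, 5.32 and 3.56 TPM in KO (-2.00, adjusted p = 2.15e-08), and the Polycomb genes Cbx8 (-1.25) and Cbx2 (-1.09) were lower while Eed was higher (0.36, adjusted p = 4.93e-05).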
